A study of Caenorhabditis elegans with 4 samples.

Results

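The genes described here encode the ammonium transporters of the nematode Caenorhabditis elegans, namely amt-1, amt-2, amt-3 and amt-4 of the Amt family and rhr-1 and rhr-2 of the Rh (Rhesus) family. They were chosen by gene name from the deposited count table, 6 of 20392 genes, and all 6 passed the filter on low counts that left 15008 genes for testing. The family was singled out because amt-1 was among the genes that differed most between the groups. The contrast between the groups is therefore given for these 6 genes as a description, with no test.

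RNA was measured in first-stage (L1) larvae, with 2 libraries in each of 2 groups. Wild type larvae were of strain N2 and were raised on bacteria carrying the empty RNAi vector L4440. The other larvae were of strain GW1183, mutant for met-1 (met-1-/-), and were raised on RNAi bacteria against mes-4. Below, the second group is named GW1183 mes-4(RNAi). MET-1 and MES-4 are methyltransferases of histone H3 lysine 36, and the series asked how expression changes when that methylation is depleted. Strain, mutation and RNAi differ together between the groups, so their parts in any difference cannot be told apart. In both groups the parents grew on the RNAi bacteria for 60 to 65 h at 20 °C, and their embryos hatched in buffer and stayed there for 18 h without food. The larvae were then refed the matching bacteria for 2 h 30 min before lysis. Each library came from whole larvae, so fewer cells of a type and less RNA per cell cannot be told apart.

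Amt and Rh proteins form trimers of membrane channels that pass ammonium or ammonia. Amt proteins are known from bacteria, plants and fungi, where they take up ammonium as a nitrogen source, and Rh proteins from vertebrate red cells, gill and kidney, where they take part in ammonia transport. Nematodes release most of their waste nitrogen as ammonia. In C. elegans, ammonia excretion across the body surface has been linked to Rh proteins together with the V-ATPase proton pump, the Na+/K+-ATPase, Na+/H+ exchangers and carbonic anhydrase.

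The libraries held 29081819 to 35106597 counts. The targeted transcript met-1 was at 171.9 and 164.9 CPM in wild type and 114.9 and 111.4 CPM in GW1183 mes-4(RNAi) larvae, and mes-4 was at 34.3 and 37.4 against 26.2 and 28.3 CPM. CPM are counts relative to the library total (per 1000000 counts), scaled by TMM, edgeR's trimmed-mean normalization. Both targeted transcripts were lower in both libraries of the second group, as were 22.2% of all tested genes. DESeq2 called met-1 (adjusted p = 0.0039) and edgeR did not (adjusted p = 0.111). Neither test called mes-4 (DESeq2 adjusted p = 0.337, edgeR adjusted p = 0.267). In the bulk larvae, marker lists of hypodermis, excretory system and neurons overlapped between the groups in summed level. The body wall muscle sums also overlapped, at 6485.2 and 8101.0 CPM in wild type and 7391.2 and 10113.9 CPM in GW1183 mes-4(RNAi) larvae. All 6 muscle markers were above 0 in log2 fold change (median 0.35), while 48.5% of all tested genes were below 0. Of the 6, 2 were higher without overlap, against 22.7% of all tested genes. The myosin gene myo-3 was called by DESeq2, the only marker that was. The 9 intestinal markers summed to 6079.9 and 5478.1 CPM in wild type and to 5232.1 and 5468.4 CPM in GW1183 mes-4(RNAi) larvae. The 7 germ line markers summed to 100.1 and 94.3 against 100.4 and 112.9 CPM. For both lists the groups did not overlap, but the gap between them was smaller than the difference between replicates of either group. Of the 9 intestinal markers, 8 were below 0 in log2 fold change, against 48.5% of all tested genes, and 0 were called. The germ line sum was higher mainly through glh-1, a helicase gene. Of the 7 germ line markers, 5 were below 0 (median log2 fold change -0.31), against 48.5% of all tested genes. Lower without overlap were 3 of the 7 (pgl-3, nos-2 and xnd-1), against 22.2% of all tested genes. No test of the marker lists was made. Of all markers, only the collagen gene rol-6 was at 0 in any library. The part of these differences in the results below was not tested.

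The gene amt-1 (WBGene00000133, chromosome X) was the family member at the lowest level in wild type, and the member that differed most between the groups. It had 86 and 81 counts in the 2 wild type libraries and 319 and 538 counts in the 2 GW1183 mes-4(RNAi) libraries. On the CPM scale these were 2.58 and 2.58 in wild type and 10.52 and 15.44 in GW1183 mes-4(RNAi) larvae. Both GW1183 mes-4(RNAi) libraries were high and the wild type libraries lay close together, so that the lowest value of the former was 4.07 times the highest of the latter. The fold change was 5.03, a log2 fold change of 2.33 (SE 0.26). By log2 fold change it ranked 204th of all 15008 tested genes, and 11th of the 9782 with a mean of at least 5 CPM over the 4 libraries, after R03H10.6 (2.34) and before oac-32 (2.20). It passed that mean through the GW1183 mes-4(RNAi) libraries, and these ranks only describe why the gene was chosen.

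The size of the difference, though not its direction, varied with the libraries used. The 2 GW1183 mes-4(RNAi) libraries differed 1.47-fold in amt-1, against 1.003-fold between the wild type libraries. Without GW1183 mes-4(RNAi) replicate 2 the log2 fold change was 2.02, and without replicate 1 of that group it was 2.58. The counting error of the smallest amt-1 count was 11.1%. In the Ensembl annotation of assembly WBcel235, amt-1 has 1 protein-coding transcript of 9 exons, and 156 of its exonic bases lie opposite the noncoding RNA gene C05E11.15. The strand setting of the counting is not given in the sources used here, so reads of that antisense gene cannot be told apart from reads of amt-1.

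**Figure D1:**
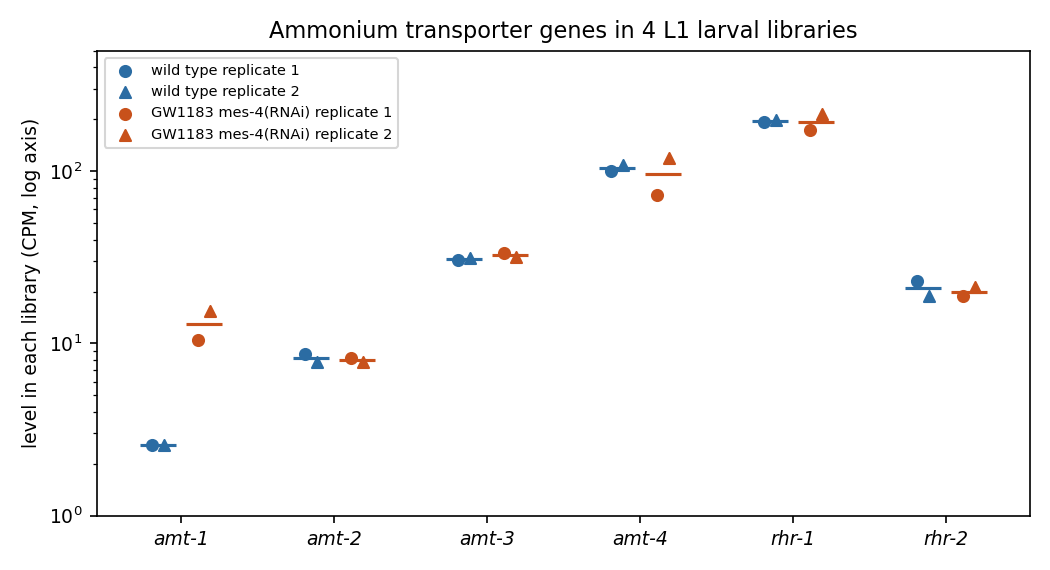
Level of each ammonium transporter gene in every library, in CPM on a log axis, with replicate 1 as circles, replicate 2 as triangles and the mean of each group as a line. The libraries of the 2 groups stand apart for amt-1, at 2.58 against 10.52 and 15.44 CPM, and lie close together or overlap for the other members.

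The gene amt-4 (WBGene00000136), the most abundant Amt gene, lies next to amt-1 on chromosome X. Both are on the same strand, with amt-4 upstream and 1816 bases between the gene models in WBcel235. It was at 100.4 and 108.0 CPM in wild type and at 73.2 and 119.5 CPM in GW1183 mes-4(RNAi) larvae. The GW1183 mes-4(RNAi) libraries lay on either side of the wild type libraries and differed 1.63-fold from each other. The log2 fold change was -0.11 (SE 0.24), and it was -0.52 without GW1183 mes-4(RNAi) replicate 2 and 0.20 without replicate 1 of that group, so these libraries give no direction for amt-4. Its longest coding sequence spans 577 codons in 10 exons, against 534 codons for amt-1.

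The other Amt genes are unlinked to this pair. The gene amt-3 (WBGene00000135, chromosome II), with the longest coding sequence of the family at 687 codons, was at 30.5 and 31.4 CPM in wild type and at 33.3 and 31.8 CPM in GW1183 mes-4(RNAi) larvae. The groups did not overlap, but the lowest GW1183 mes-4(RNAi) value was only 1.012 times the highest wild type value, and the log2 fold change was 0.07 (SE 0.12). Of the exonic bases of amt-3, 55 lie opposite the protein-coding gene M195.2 in WBcel235. The gene amt-2 (WBGene00000134, chromosome IV) was at 8.69 and 7.82 CPM in wild type and at 8.28 and 7.75 CPM in GW1183 mes-4(RNAi) larvae, with overlap between the groups and a log2 fold change of -0.04 (SE 0.17). Its coding sequence spans 515 codons in 10 exons.

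The Rh genes are both on chromosome V. The gene rhr-1 (WBGene00004358), the member with the highest level, was at 192.7 and 198.9 CPM in wild type and at 172.9 and 214.9 CPM in GW1183 mes-4(RNAi) larvae. As with amt-4, the wild type values fell between those of the GW1183 mes-4(RNAi) libraries, and the log2 fold change was -0.01 (SE 0.14). The gene rhr-2 (WBGene00004359) was at 23.04 and 18.82 CPM in wild type and at 18.7 and 21.2 CPM in GW1183 mes-4(RNAi) larvae, again with overlap, and its log2 fold change was -0.07 (SE 0.16). The 2 Rh genes have the shortest coding sequences of the family, 463 codons in 6 exons for rhr-1 and 457 codons in 11 exons for rhr-2.

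Within the GW1183 mes-4(RNAi) group, replicate 2 was above replicate 1 for amt-4 (1.63-fold), amt-1 (1.47-fold), rhr-1 (1.24-fold) and rhr-2 (1.13-fold), and at 0.94 and 0.96 times replicate 1 for amt-2 and amt-3. In wild type the ratio of replicate 2 to replicate 1 ran from 0.82 for rhr-2 to 1.08 for amt-4. The sign of the log2 fold change turned with the scaling for amt-2 and rhr-1, to 0.01 and 0.03 with library size only, and with the library left out for amt-2, amt-4, rhr-1 and rhr-2.

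Counted over the family, GW1183 mes-4(RNAi) libraries were higher without overlap for 2 of 6 members, amt-1 and amt-3, against 22.7% of all tested genes, and they were lower without overlap for 0 of 6, against 22.2% of all tested genes. Nothing is read from these counts, since the family was chosen by this contrast. The standard errors of the 5 members other than amt-1 ran from 0.12 to 0.24 on the log2 scale. With 2 libraries in each group, differences of this size or smaller were not resolved, and somewhat larger ones may not have been either.

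Levels can be compared between genes once scaled to length, here as CPM per kilobase of the deposited gene model. In wild type, rhr-1 was highest at 119.8 ± 2.66 CPM per kb (SD, n = 2), above 96.2% of all genes in the table. It was followed by amt-4 at 50.8 ± 2.64, rhr-2 at 14.4 ± 2.05, amt-3 at 13.1 ± 0.28, amt-2 at 5.26 ± 0.39 and amt-1 at 1.493 ± 0.0031 CPM per kb. The SD of amt-1 lay below the counting error of its smallest count (11.1%), so it understates the uncertainty of that level. The neighbours rhr-2 and amt-3 did not differ beyond their spread, with amt-3 at 0.82 and 1.03 times rhr-2 in the wild type libraries, and each of the other steps exceeded the spread of both genes. The rank of amt-1 among all genes lay at the 41.6th percentile in wild type and at the 59.0th in GW1183 mes-4(RNAi) larvae.

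In GW1183 mes-4(RNAi) larvae rhr-1 (118.7 ± 18.2 CPM per kb) and amt-4 (46.98 ± 15.97) again stood first and second, and amt-3 (13.8 ± 0.44) and rhr-2 (13.7 ± 1.22) again did not differ beyond their spread. At the lower end amt-1 was at 7.51 ± 2.02 CPM per kb and amt-2 at 5.11 ± 0.24, and amt-1 stood at 1.15 and 1.81 times amt-2 in the 2 libraries, against 0.27 and 0.30 times in wild type. The ratio of amt-4 to its neighbour amt-1 was 32.8 and 35.2 in the wild type libraries and 5.86 and 6.52 in the GW1183 mes-4(RNAi) libraries. This ratio within a library does not depend on library scaling.

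Summed over the 6 genes, the transporter transcripts stood at 202.7 and 207.1 CPM per kb in wild type and at 179.8 and 231.7 in GW1183 mes-4(RNAi) larvae. The wild type sums lay between those of the GW1183 mes-4(RNAi) libraries. Of the sum, rhr-1 made up 58.5 ± 0.40% in wild type and 57.8 ± 1.48% in GW1183 mes-4(RNAi) larvae, and amt-4 24.8 ± 0.91% and 22.5 ± 3.75% (SD, n = 2 each). The share of amt-1 was 0.736% and 0.722% in the wild type libraries and 3.38% and 3.86% in the GW1183 mes-4(RNAi) libraries.

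**Figure D2:**
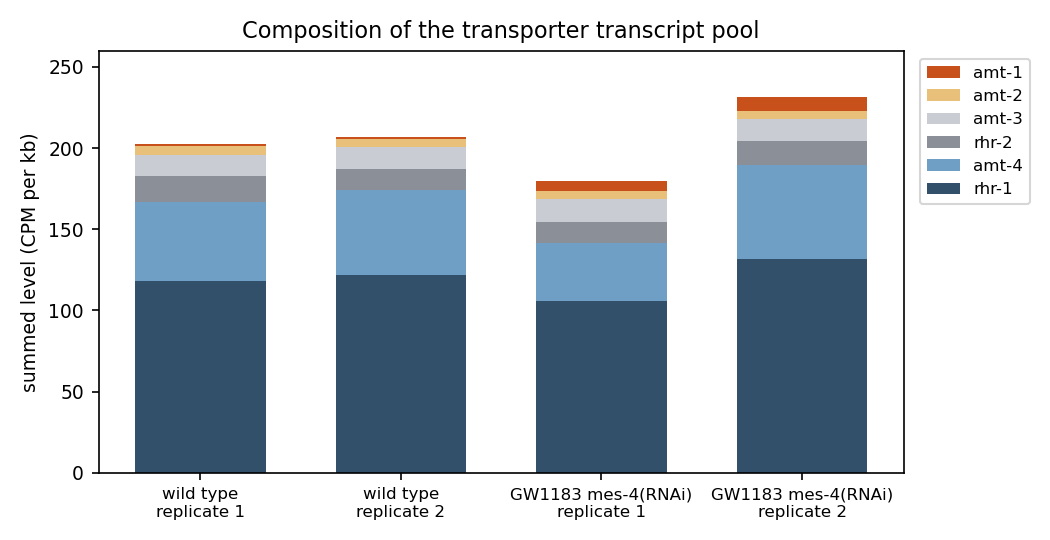
Summed level of the 6 ammonium transporter genes in each library, in CPM per kilobase of gene model, stacked by gene. The amt-1 segment at the top makes up 0.736% and 0.722% of the wild type bars and 3.38% and 3.86% of the GW1183 mes-4(RNAi) bars, while rhr-1 and amt-4 make up most of every bar.

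The genes around the transporters were compared next, since their values were not used to choose the family. The 5 genes on each side of each member numbered 50 besides the members, and 39 of them were tested. With edgeR's quasi-likelihood test none was called (0 of 39, against 0% of all tested genes), with 2 of 39 at an unadjusted p under the threshold of 0.05, against 14.6% of all tested genes. DESeq2, the second count test, called 0 higher and 0 lower, against 2.45% and 1.92% of all tested genes. The median log2 fold change of the 39 was 0.05, against 0.01 over all tested genes.

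On chromosome X the tested genes beside amt-4 and amt-1 had log2 fold changes from -0.17 to 0.32, next to 2.33 for amt-1, and none was called. The difference between amt-1 and its neighbours was not itself tested. Upstream of amt-4, the gene C05E11.6 was at 2.10 and 2.26 CPM in wild type and at 2.47 and 2.64 CPM in GW1183 mes-4(RNAi) larvae, with a log2 fold change of 0.23 (SE 0.25). Downstream of amt-1, C05E11.3 was at 11.26 and 14.005 against 13.39 and 12.75 CPM, a log2 fold change of 0.05 (SE 0.17). Beyond them, the log2 fold change was 0.11 for ham-2, which encodes a zinc finger transcription factor, -0.07 for C07A12.2, -0.14 for the nuclear receptor gene nhr-35 and -0.17 for C05E11.7. It was 0.13 for lnp-1, the lunapark gene of the endoplasmic reticulum, 0.24 for the neuropeptide gene flp-12 and 0.32 (SE 0.11) for pdi-2, a protein disulphide isomerase gene. The remaining neighbour, C05E11.2, had at most 2 counts in any library and was not tested. The edgeR adjusted p of these tested neighbours was 0.302 or higher.

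**Figure D3:**
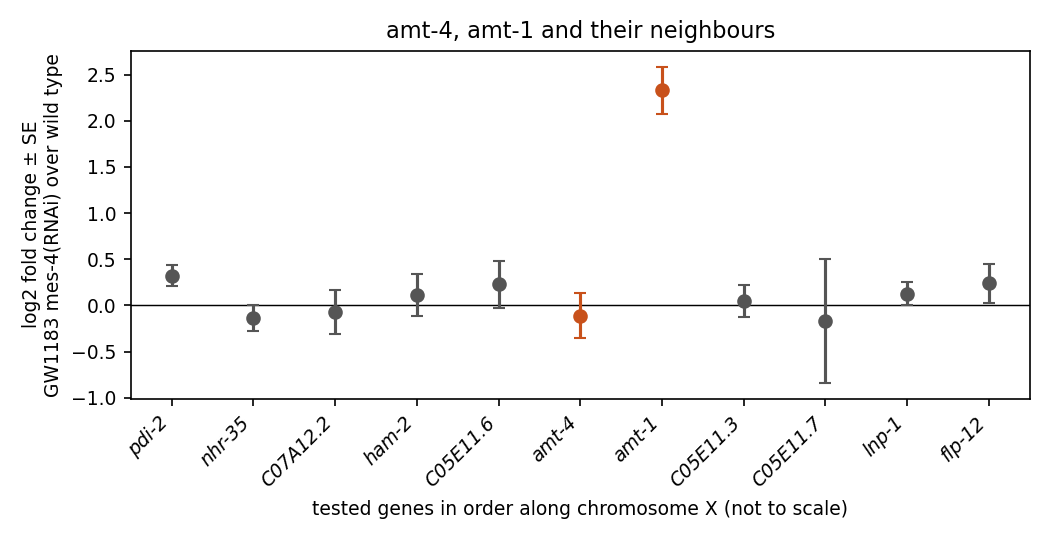
Log2 fold change of GW1183 mes-4(RNAi) over wild type larvae with its standard error (edgeR) for amt-4, amt-1 (orange) and the tested genes on either side (grey), in order along chromosome X and not to scale. The point for amt-1 is at 2.33, and the others lie between -0.17 and 0.32.

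Genes of ammonia handling and ion transport were then taken from 6 lists with 73 genes, of which 70 were tested. With edgeR 0 of 70 were called, against 0% of all tested genes, and 7 had an unadjusted p under 0.05, against 14.6%. limma-voom also called 0 over all tested genes. The 0 calls of these 2 tools therefore say nothing particular about the lists. DESeq2 called 4, against 4.36% of all tested genes, of which 3 were higher and 1 lower, against 2.45% and 1.92%. In the next paragraphs "rose" and "fell" are used of these DESeq2 calls, which edgeR did not share, and log2 fold changes are from edgeR.

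The list of ammonia and glutamine metabolism had 14 tested genes, with 0 that rose, 1 that fell and a median log2 fold change of -0.01. Over all tested genes 2.45% rose and 1.92% fell. The gene that fell was prdh-1, which encodes proline dehydrogenase, the first enzyme of proline breakdown. It was at 246.4 and 242.9 CPM in wild type and at 161.7 and 171.5 CPM in GW1183 mes-4(RNAi) larvae, a log2 fold change of -0.55 (SE 0.11; DESeq2 adjusted p = 0.0047, edgeR adjusted p = 0.118). The glutamine synthetase genes gln-5 and gln-6, whose product joins ammonia to glutamate, had log2 fold changes of -1.31 (SE 0.53) and -1.09 (SE 0.44) at low levels, from 2.55 and 1.66 to 1.22 and 0.49 CPM and from 6.14 and 4.24 to 3.33 and 1.55 CPM. Neither was called (edgeR adjusted p = 0.360 and 0.352). The glutamine synthetase genes at higher levels, gln-3 and gln-1, overlapped between the groups. For gln-3 the values were 185.1 and 164.4 against 187.6 and 145.3 CPM (log2 fold change -0.07, SE 0.16). For gln-1 they were 44.5 and 49.3 against 40.4 and 51.8 CPM (-0.02, SE 0.16). The gene gdh-1 of glutamate dehydrogenase, which releases ammonia from glutamate, overlapped between the groups at 1972.0 and 2082.1 against 1836.6 and 2094.4 CPM.

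Of 7 tested genes of the Na+/K+-ATPase list, 2 rose and 0 fell, against 2.45% and 1.92% of all tested genes. The list's median was -0.01. The genes that rose were catp-2 and catp-3, which encode P-type ATPases related to the pump's alpha subunit. For catp-2 the libraries held 11 and 16 counts in wild type and 69 and 77 counts in GW1183 mes-4(RNAi) larvae, a log2 fold change of 2.41 (SE 0.37; DESeq2 adjusted p = 0.0069, edgeR adjusted p = 0.087). For catp-3 the values were 17.7 and 13.5 CPM against 50.1 and 28.6 CPM, a log2 fold change of 1.33 (SE 0.31; DESeq2 adjusted p = 0.0019, edgeR adjusted p = 0.163). The alpha subunit gene eat-6 and the beta subunit gene nkb-3 were not called. The log2 fold change of eat-6 was -0.12, and nkb-3 was at 170.0 and 173.5 against 158.8 and 158.6 CPM.

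Of 9 Na+/H+ exchanger genes, 1 rose and 0 fell, against 2.45% and 1.92% of all tested genes, with a median of 0.08. The gene that rose was nhx-6, from 1.41 and 1.82 to 4.15 and 5.02 CPM, a log2 fold change of 1.51 (SE 0.28; DESeq2 adjusted p = 0.0139, edgeR adjusted p = 0.111). The exchanger gene nhx-2 was at 128.7 and 126.0 against 100.9 and 106.8 CPM, and nhx-5 at 21.4 and 22.3 against 27.96 and 26.38 CPM. Neither of these was called. Of the 9 exchanger genes, 3 were higher without overlap, nhx-5 among them, against 22.7% of all tested genes. Lower without overlap were 3, with nhx-2, against 22.2%.

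Most calls in these lists were lost with fewer libraries, as were most DESeq2 calls over all tested genes. Each such fit leaves a group without replication, so the loss is not particular to these genes. Leaving out any library ended the calls of prdh-1, catp-2 and nhx-6, with DESeq2 adjusted p from 0.291 to 0.561 for prdh-1, from 0.273 to 0.546 for catp-2 and from 0.394 to 0.779 for nhx-6. For catp-3 the DESeq2 adjusted p was 0.155 without wild type replicate 2 and 0.301 without GW1183 mes-4(RNAi) replicate 1, and the call held at 0.0082 without wild type replicate 1 and at 0.00013 without GW1183 mes-4(RNAi) replicate 2.

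Subunit genes of the V-ATPase, the proton pump, were mostly below 0 in log2 fold change with 0 calls by edgeR and by DESeq2. Of 21 tested subunit genes, 19 were below 0, against 48.5% of all tested genes. Only 1 had an unadjusted edgeR p under 0.05, against 14.6% of all tested genes. The median was -0.16 against 0.01 over all tested genes. For 10 of the 21 the GW1183 mes-4(RNAi) libraries were lower without overlap, against 22.2% of all tested genes. Examples are vha-11, at 736.5 and 740.2 against 591.7 and 644.0 CPM (log2 fold change -0.26, SE 0.12), vha-10 (-0.26, SE 0.13) and vha-18, at 2.43 and 2.20 against 0.82 and 1.18 CPM (-1.20, SE 0.33). The list's median was -0.07 without GW1183 mes-4(RNAi) replicate 1 and -0.27 without replicate 2 of that group, and no test of the list was made.

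The carbonic anhydrase and aquaporin lists had 0 calls by either tool. Of 8 carbonic anhydrase genes, 5 were below 0, against 48.5% of all tested genes. The median was -0.03, and from -0.08 to 0.07 over the alternatives in processing. Among them cah-4 ranged more between replicates than between groups, at 360.4 and 186.0 CPM in wild type and 255.9 and 139.6 CPM in GW1183 mes-4(RNAi) larvae, and the log2 fold change was 0.21 for cah-1 and 0.19 for cah-2. Of 11 tested aquaporin genes, 7 were below 0, against 48.5% of all tested genes. The median was -0.03, and from -0.13 to 0.02 over the alternatives. The water channel gene aqp-2 was at 187.2 and 220.2 against 257.1 and 360.5 CPM (log2 fold change 0.60, SE 0.20, edgeR adjusted p = 0.275), and DESeq2 did not call it with all libraries but did without GW1183 mes-4(RNAi) replicate 1 (adjusted p = 0.0471). The log2 fold change was 0.63 for aqp-5 and -0.17 for aqp-7.

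**Figure D4:**
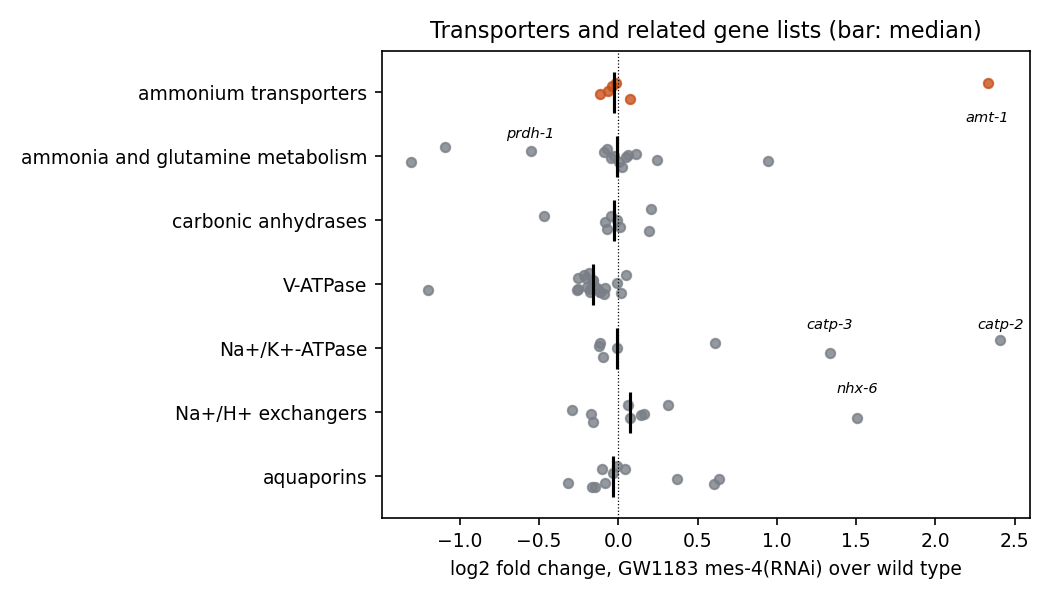
Log2 fold change of GW1183 mes-4(RNAi) over wild type larvae for each tested gene of the transporter family (orange) and of the 6 related lists (grey), with the list's median as a bar. Genes called by DESeq2 in the related lists are named, and amt-1 at 2.33 stands beside catp-2 at 2.41, away from the other transporters between -0.11 and 0.07.

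Genes with a profile most like that of amt-1 were found by the Euclidean distance between log2 CPM values, centred on each gene's mean over the 4 libraries, among tested genes with a mean of at least 5 CPM. The nearest 5 were Y6E2A.5 (distance 0.20), F58H7.5 (0.32), F44F1.4 (0.37), F26D11.12 (0.45) and ddn-1 (0.57). All but F44F1.4 had a wild type mean under 5 CPM. Like amt-1, they passed the required mean through the GW1183 mes-4(RNAi) libraries. The nearest, Y6E2A.5, was at 3.06 and 2.81 CPM in wild type and 11.31 and 15.01 CPM in GW1183 mes-4(RNAi) larvae. Of these genes, 3 are on chromosome V, 1 on IV, 1 on I and 0 on X, which holds 2210 of the 15008 tested genes. No pattern across chromosomes is read from 5 genes picked by their profile. The other transporters lay at distances of 2.25 (amt-3) to 2.44 (amt-4) from amt-1. With 4 libraries, the likeness says only that these genes shared both the difference between the groups and the higher value in GW1183 mes-4(RNAi) replicate 2.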

How the data were processed

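Whole L1 larvae were sequenced after ribosomal depletion with the ScriptSeq Complete Gold kit, from 5 µg of total RNA, per the labels' protocols. The authors deposited raw counts per gene, the gene model lengths, and normalized values on a log2 scale. The values show that the latter are the deposited counts times a factor of the library, plus 8, on the log2 scale. Reads were placed on build ce10, per the submitters' processing notes. Which aligner, counter, annotation and strand setting were used is not given in the sources used here.

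Symbols for 19182 of the 20392 identifiers came from the gene name table, and gene order, strand and exons from Ensembl's WBcel235 annotation. That is not the authors' build, so no coordinates are printed. Counts were filtered with filterByExpr, scaled by TMM and tested with edgeR 4.0.16 (quasi-likelihood, no block, Benjamini-Hochberg over 15008 genes, threshold 0.05) in R 4.3.3. Standard errors were derived from the fold change and its F statistic. DESeq2 1.42.0 (Wald test) and limma-voom (limma 3.58.1) were alternatives. DESeq2 left 291 adjusted p-values as NA, which were not counted as calls. The code was tested on simulated data. The series text calls the replicates of a group biologically independent. The p-values rest on the spread between the 2 libraries of each group, with variance estimates that draw on the other genes as well.

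Named genes were the members, the 3 genes with the smallest edgeR p in each related list, the neighbours of amt-1 and amt-4, the 5 nearest profiles and the targeted genes. Further list genes (eat-6, gdh-1, gln-1, gln-3) and the single markers were named after their values were seen. The members and lists were chosen with earlier results of these data known. Centred profiles used log2 CPM with a prior count of 2. Figures were drawn with matplotlib 3.10.9.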

Additional observations from a re-analysis of the deposited data

How the results depend on the processing

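The log2 fold change of amt-1 was above 0 under all 12 alternatives, from 2.02 to 2.58, with both ends from leaving out 1 GW1183 mes-4(RNAi) library. The range was -0.12 to 0.03 for amt-2, 0.04 to 0.12 for amt-3, -0.52 to 0.20 for amt-4, -0.19 to 0.13 for rhr-1 and -0.21 to 0.08 for rhr-2. On CPM without length scaling, 4 of the 6 members kept their rank in wild type, and amt-3 and rhr-2 changed places. Over all tested genes edgeR called 0, against 128 without a filter, 2 when 5 CPM were required in 2 libraries and 655 with DESeq2. When 1 library was left out, edgeR called 0 to 35 genes and DESeq2 152 to 209. Of the related lists edgeR called 0 genes, against 4 with DESeq2, and DESeq2 called 0 to 2 when 1 library was left out. These include calls gained, of the asparagine synthetase gene asns-2 without GW1183 mes-4(RNAi) replicate 2 (DESeq2 adjusted p = 4.6e-05, against 0.147 with all libraries) and of aqp-2 without replicate 1 of that group (0.0471, against 0.112). Of the neighbours DESeq2 called 0, against 0 to 2 when 1 library was left out. The latter, without GW1183 mes-4(RNAi) replicate 2, were cyp-14A5 and snpc-1.3. These and asns-2 were named after their values were seen. The cause was not tested.

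With the replicate number as a block (replicate block), edgeR called 3047 of the 15008 tested genes. It called 11 of the 70 tested genes of the related lists and 5 of the 39 tested neighbours. DESeq2 with the block called 1387 genes, with 7 of the related lists and 4 neighbours. The log2 fold change of amt-1 was then 2.31. Across 15008 genes the difference between replicates 1 and 2 correlated at 0.646 between the groups, but the labels do not say that a number marks a shared batch, and with 2 numbers the samples are taken to share only a number.

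Depth limits the low genes. The 2 libraries per group limit every comparison.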
